A study of Homo sapiens with 6 samples.

Results

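The genes described here are 40 genes of sugar breakdown and of the response to low oxygen: the enzymes of glycolysis, the carriers of glucose and lactate, the hypoxia-inducible factors (HIF) and a set of HIF target genes. They were chosen by gene symbol. All 40 names were found among the 57914 genes of the deposited table. RNA sequencing had been run on A375, an established human melanoma cell line grown in high-glucose medium with 10% fetal calf serum and 2 mM glutamine. Before sorting, the cells took up Aldefluor, a substrate that turns fluorescent in cells with aldehyde dehydrogenase (ALDH) activity. The 5% of cells with the brightest signal gave 3 libraries (ALDH_High) and the 5% with the dimmest signal gave 3 more (ALDH_Low). Both groups came from the same cell line and carried no other stated treatment or genetic change, and the labels give no oxygen level for the culture. Nothing in the labels says whether the 3 libraries of a group came from separate cultures or sorts, so p-values measure the spread between these libraries, which may be technical.

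Glycolysis splits glucose into pyruvate and yields ATP without oxygen. Lactate dehydrogenase then turns pyruvate into lactate, which leaves the cell through carriers of the SLC16A family. HIF1A and EPAS1 are the alpha subunits of HIF: at normal oxygen, prolyl hydroxylases of the EGLN family mark them for destruction, and at low oxygen they accumulate, mostly without a change in their own mRNA, and switch on genes that hold the short core ACGTG or GCGTG near their start. Several glycolytic genes and CA9, ADM, VEGFA and NDRG1 are textbook targets, and HIF activity as well as aerobic glycolysis is often high in melanoma.

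Of the 40 genes, 9 passed the threshold between ALDH_High and ALDH_Low, and they went in both directions. HK2, ALDOC, PFKFB3, PFKFB4 and P4HA1 were higher in ALDH_High, by 1.62-fold to 2.39-fold in mean level, and CA9, ADM, NDRG1 and BNIP3L were lower, by 1.34-fold to 6.82-fold. BNIP3L did not pass when any 1 library was left out, and NDRG1 and ALDOC lost their calls with certain libraries left out. The largest fold, that of CA9, rests on 21, 15 and 11 counts in ALDH_High. Of the 25 genes of glucose handling, all tested, 4 rose and 0 fell (16%). Of the 15 genes of the HIF side, 14 were tested, 1 rose and 4 fell (35.7%). Over all genes tested 20.6% passed, and the difference between the 2 sides was not tested. The main carriers and the abundant enzymes of the pathway, SLC2A1, GAPDH, ENO1, PKM and LDHA among them, did not pass, and neither did HIF1A, EPAS1 or VEGFA.

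The promoter stretches of 5 of the 9 genes are shown because both directions of change occurred among genes whose promoters hold a core of the hypoxia response element, ACGTG or GCGTG. These 5 are the genes past the threshold that have a single promoter window in the RefSeq table used. Each stretch is the 250 bases before the annotated start on GRCh38.p14, written 5′ to 3′ on the gene's own strand, with every core on either strand in capitals; CACGT and CACGC are the cores read from the other strand. CA9 and ADM were lower in ALDH_High, and the other three were higher.
CA9, chr9:35673678-35673927, plus strand: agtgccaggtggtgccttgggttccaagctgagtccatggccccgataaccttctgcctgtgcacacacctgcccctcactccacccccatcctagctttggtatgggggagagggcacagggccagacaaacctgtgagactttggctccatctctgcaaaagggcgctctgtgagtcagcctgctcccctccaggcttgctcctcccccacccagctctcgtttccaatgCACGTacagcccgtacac
ADM, chr11:10304823-10305072, plus strand: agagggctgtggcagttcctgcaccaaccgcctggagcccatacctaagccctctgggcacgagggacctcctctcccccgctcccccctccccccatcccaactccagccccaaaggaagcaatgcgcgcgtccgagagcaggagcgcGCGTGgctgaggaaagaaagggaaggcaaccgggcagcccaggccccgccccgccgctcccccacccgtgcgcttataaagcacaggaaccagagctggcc
P4HA1, chr10:73096867-73097116, minus strand: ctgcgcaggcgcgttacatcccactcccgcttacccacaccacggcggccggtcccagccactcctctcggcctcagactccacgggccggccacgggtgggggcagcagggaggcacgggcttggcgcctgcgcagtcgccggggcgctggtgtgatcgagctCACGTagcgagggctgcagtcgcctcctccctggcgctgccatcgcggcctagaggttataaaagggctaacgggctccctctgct
ALDOC, chr17:28576896-28577145, minus strand: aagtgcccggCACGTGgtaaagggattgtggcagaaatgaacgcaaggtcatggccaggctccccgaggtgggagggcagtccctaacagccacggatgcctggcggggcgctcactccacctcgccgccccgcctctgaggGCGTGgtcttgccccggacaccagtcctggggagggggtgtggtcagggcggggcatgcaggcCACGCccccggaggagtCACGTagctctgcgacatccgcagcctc
PFKFB4, chr3:48556804-48557053, minus strand: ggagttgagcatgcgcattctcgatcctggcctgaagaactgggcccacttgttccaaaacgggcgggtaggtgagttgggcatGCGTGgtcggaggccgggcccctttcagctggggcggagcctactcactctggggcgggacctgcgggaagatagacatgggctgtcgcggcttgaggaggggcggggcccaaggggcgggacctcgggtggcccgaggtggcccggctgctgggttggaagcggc
The core in CA9 began 18 bases before the start, on the opposite strand, and that in P4HA1 began 86 bases before it, also on the opposite strand. ADM held GCGTG at 101 bases before the start, and PFKFB4 held GCGTG at 166 bases. ALDOC held several: an overlapping pair of ACGTG on both strands at 240 and 239 bases, GCGTG at 108 and 45 bases, and ACGTG at 28 bases before the start.

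The table matched 35 of the 40 genes by symbol; VEGFA, SLC2A3, BNIP3L, NDRG1 and SLC16A1 had no entry. Over windows from 250 bases before to 50 after the start, 32 of the 35 genes (91.4%) held ACGTG or GCGTG on either strand in at least 1 window, against 52.4% of all 27305 genes in the table. ACGTG was found in 20 of them (57.1%, against 24.9% of all genes) and GCGTG in 22 (62.9%, against 40.6%). Genes with several annotated starts have more windows and so more chances of a match; counted by window, 43 of 63 windows of these genes (68.3%) held a core, against 48.4% of all 35116 windows. By outcome, a core was present for 5 of 5 genes that were higher, 2 of 2 that were lower and 24 of 27 that did not pass. A match is a run of letters and not a measured binding site.

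Total counts per library lay between 26692868 and 37830603, and the 40 genes together held between 2.36% and 2.79% of them. Over all genes, 17047 had enough counts to be tested with edgeR's quasi-likelihood test, and each adjusted p was corrected by the Benjamini-Hochberg method for all of them, with a threshold of 0.05. ALDH1A3, the aldehyde dehydrogenase named with the study, was at 683, 1149 and 1088 CPM (read counts scaled to a common library size, with TMM factors) in ALDH_High and at 345, 420 and 403 CPM in ALDH_Low, higher in every ALDH_High library (log2 fold change 1.32, adjusted p = 0.000734). Of 10 melanoma markers, SOX10, S100A1 and S100B were higher and MITF was lower in ALDH_High, PMEL and PAX3 did not pass, and the pigment genes MLANA, TYR, TYRP1 and DCT were too low to test in these cells. The 10 summed to between 682 and 854 CPM in ALDH_High and between 227 and 246 CPM in ALDH_Low. Markers of other cell types were low; sums over marker and gene lists are counts scaled to the total count without TMM factors. The 8 blood cell markers summed to between 3.18 and 7.27 CPM in ALDH_High and between 1.98 and 2.85 CPM in ALDH_Low, with MS4A1 and HBB at 0 in all libraries. Of the 3 that could be tested, LYZ (log2 fold change 1.65) and HBA1 (2.01) were higher in ALDH_High and CD14 (-1.96) was lower. The 4 epithelial markers summed to 10.8 to 15.2 CPM against 8.27 to 11.8 CPM, and the 4 endothelial markers to 0.674 to 1.61 CPM against 0.821 to 2.29 CPM, with CLDN5 at 0 in all libraries. Of the 2 tested in each, KRT5 was lower in ALDH_High (-3.63), and KRT14, PECAM1 and VWF did not pass. The part of these markers in the results below was not tested. ALDH_High library 1 stood apart from the other ALDH_High libraries on the second principal component, which carried 14.5% of the variance, so the results below are also given without it where it matters.

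Over all genes tested, 20.6% passed the threshold: 10.8% were higher and 9.83% were lower in ALDH_High. Among the 39 of the 40 genes that could be tested, 9 (23.1%) passed, a share near that of all genes. In 13 of them (33.3%) the groups did not overlap in CPM, against 37.8% of all genes. Their median log2 fold change was -0.03, beside -0.01 for all genes tested, with 17 positive and 22 negative values. Single values ran from -2.80 for CA9 to 1.26 for PFKFB4. The number that passed was 11 with DESeq2 and 7 with limma on log2(TPM + 1), and 13 had an unadjusted p below the threshold. In bulk libraries like these, fewer cells that express a gene and less RNA per cell cannot be told apart. RNA of dividing cells moved with the groups too: 6 of 12 genes of the G2 and M phases, CDK1 and TOP2A among them, were higher and 0 lower in ALDH_High, and the 12 summed to 3715 to 4272 CPM in ALDH_High and 2545 to 2926 CPM in ALDH_Low. Of 8 immediate early genes, which respond within minutes to handling and growth signals, 3 were lower (JUNB, ATF3 and DUSP1) and 0 were higher, with sums of 568 to 1274 CPM against 1215 to 2112 CPM. Without ALDH_High library 1, all 8 of them were lower. Their part in the results below was not tested.

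**Figure D1:**
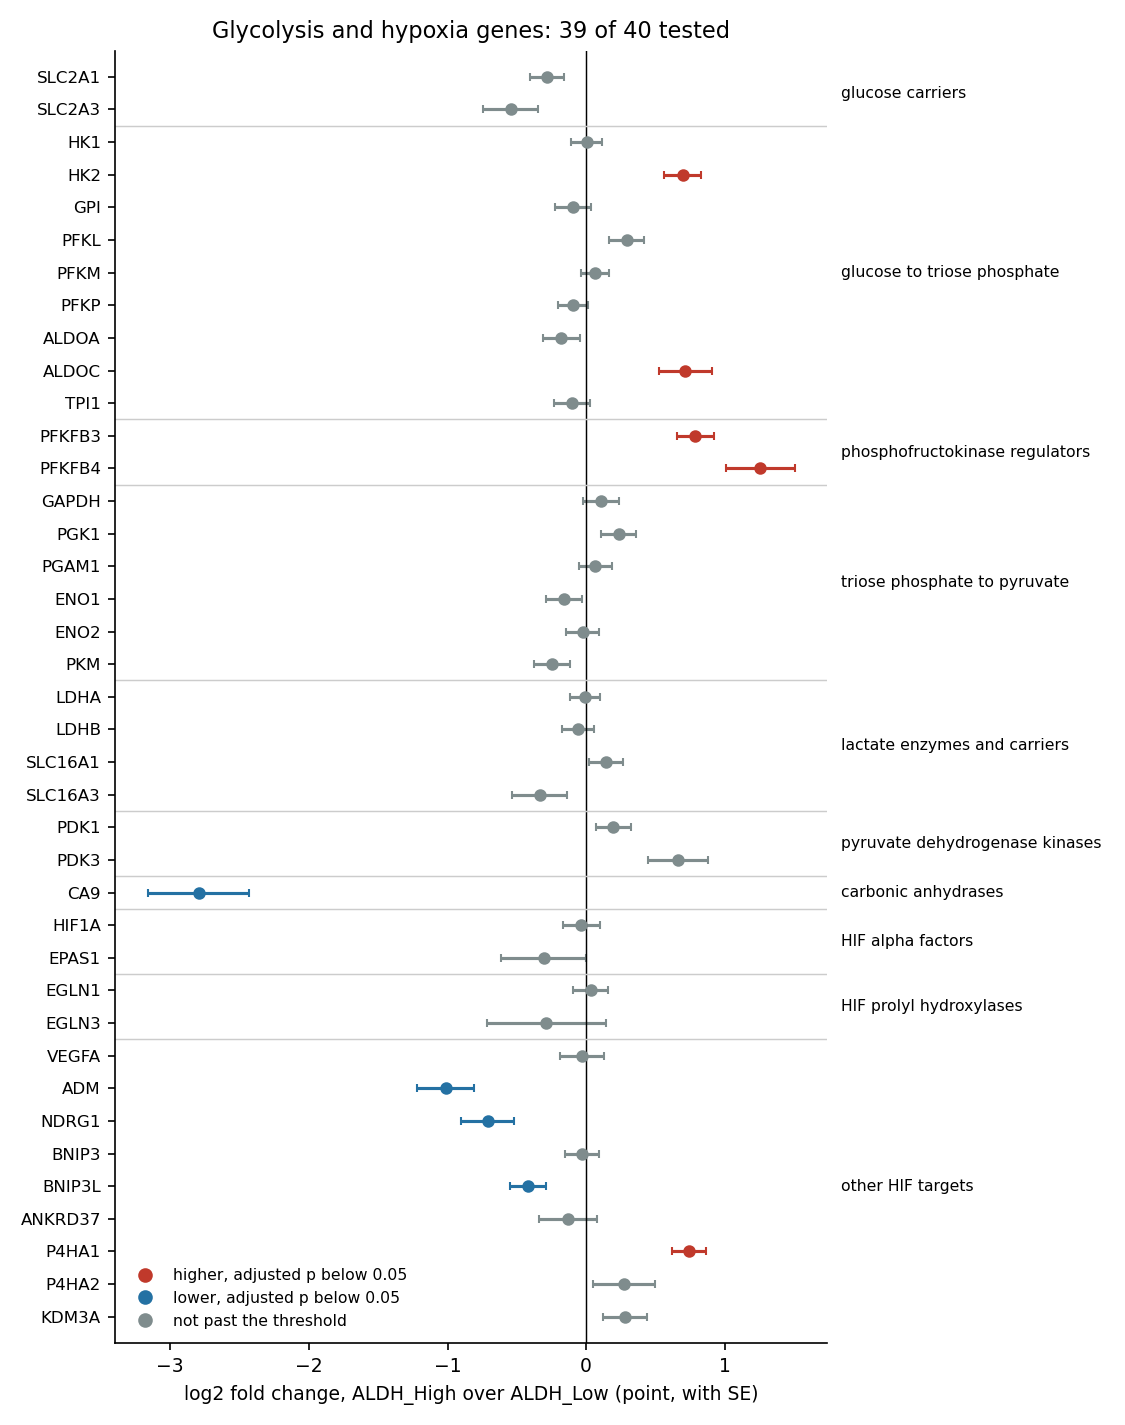
Log2 fold change of the 39 tested genes, ALDH_High over ALDH_Low, with the standard error as a bar and the genes grouped by role. Red points are the 5 genes past the threshold that were higher in ALDH_High, blue points the 4 that were lower and grey points the 30 that did not pass; most grey points lie near 0.

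Glucose enters the cell through SLC2A1 (GLUT1) and SLC2A3 (GLUT3), and neither passed the threshold. SLC2A1, the main carrier in many tumour cells, was at 331, 375 and 345 CPM in ALDH_High and 365, 477 and 436 CPM in ALDH_Low. The groups overlapped, since ALDH_Low library 1 lay below ALDH_High library 2 (log2 fold change -0.28, SE 0.12, adjusted p = 0.143). SLC2A3 gave -0.54 (adjusted p = 0.0834) with groups that did not overlap, and it passed with the replicate number as a block (0.0323) and with no filter on low counts (0.00474). ALDH_Low library 1 was at 58.4 CPM and ALDH_Low libraries 2 and 3 at 35.0 and 34.9 CPM, and without library 1 the log2 fold change was -0.24 (adjusted p = 0.326). In TPM, the deposited level corrected for gene length, SLC2A3 made up between 4.92% and 10.2% of the pair, so SLC2A1 carried most of the carrier transcripts in every library.

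Hexokinase traps glucose by phosphorylating it. HK2, the inducible form that is high in many tumours, was at 130, 166 and 170 CPM in ALDH_High and at 94.2, 105 and 88.1 CPM in ALDH_Low (chr2:74834127-74893359 on GRCh38). Every ALDH_High library lay above every ALDH_Low library, and the means were 155 ± 22.3 and 95.9 ± 8.79 CPM (SD, n = 3 each). The log2 fold change was 0.70 (SE 0.13, adjusted p = 0.00453 in edgeR's quasi-likelihood test). HK1, the form present in most tissues, did not pass, at 183 ± 1.84 and 183 ± 20.3 CPM (log2 fold change 0.00, adjusted p = 0.987). HK2 thus made up 31.8%, 37.4% and 38.4% of the TPM of the pair in ALDH_High and 27.8%, 25.7% and 24.1% in ALDH_Low. HK1 remained the larger of the pair in all 6 libraries.

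Glucose-6-phosphate isomerase and the 3 phosphofructokinase genes, whose enzyme commits sugar to glycolysis, did not pass. GPI, PFKM and PFKP had log2 fold changes of -0.10, 0.06 and -0.09. PFKL, the liver type, was highest in ALDH_High library 1 at 97.3 CPM, with 80.2 and 72.1 CPM in the other ALDH_High libraries and 66.9 to 68.7 CPM in ALDH_Low. These groups did not overlap, but the difference missed the threshold (log2 fold change 0.29, SE 0.13, adjusted p = 0.141). PFKL made up 16.7% ± 1.45 of the phosphofructokinase TPM in ALDH_High and 13.7% ± 0.887 in ALDH_Low (SD, n = 3 each). PFKP held the largest share, at 58.0% to 59.7% in ALDH_High and 62.0% to 63.7% in ALDH_Low. The share of PFKM was 24.4% ± 0.938 in ALDH_High and 23.3% ± 0.380 in ALDH_Low. The groups did not overlap in any of these shares.

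Both regulators of phosphofructokinase rose. PFKFB3 and PFKFB4 encode enzymes that make and remove fructose 2,6-bisphosphate, the strongest activator of phosphofructokinase; PFKFB3 mainly makes it. PFKFB3 was at 125, 92.8 and 97.0 CPM in ALDH_High and 58.2, 65.1 and 58.9 CPM in ALDH_Low (chr10:6144934-6254644). The groups did not overlap: the lowest ALDH_High library exceeded the highest ALDH_Low library, and the log2 fold change was 0.79 (SE 0.13, adjusted p = 0.00235). PFKFB4 was at 76.0, 47.4 and 34.9 CPM in ALDH_High and 23.9, 23.5 and 18.7 CPM in ALDH_Low (chr3:48517684-48562015). Its groups did not overlap either, and ALDH_High library 1 lay far above the other two (log2 fold change 1.26, SE 0.25, adjusted p = 0.00534). Without that library the log2 fold change of PFKFB4 was 0.92 and that of PFKFB3 was 0.66, and both still passed.

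PFKFB4 shares 298 bases on the same strand with UCN2, a peptide hormone gene, in the GENCODE 44 annotation. UCN2 was at 51.5, 21.4 and 20.1 CPM in ALDH_High and 6.59, 3.65 and 4.92 CPM in ALDH_Low (log2 fold change 2.61, adjusted p = 0.000825). Both genes were highest in ALDH_High library 1, and how reads in the shared stretch were divided between them is not given in the sources used here. The part of UCN2 reads in the PFKFB4 result was not tested.

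Aldolase cleaves the sugar into triose phosphates. ALDOC, the form known from brain, was at 40.7, 27.9 and 24.9 CPM in ALDH_High and at 21.5, 17.0 and 18.4 CPM in ALDH_Low (chr17:28573115-28576948). All ALDH_High libraries lay above all ALDH_Low libraries, library 1 of ALDH_High by the most (log2 fold change 0.72, SE 0.19, adjusted p = 0.0236). The call was lost without ALDH_Low library 2 (adjusted p = 0.0936) and without ALDH_Low library 3 (0.0885). ALDOC was a minor form: it held 1.28% ± 0.103 of the aldolase TPM in ALDH_High and 0.698% ± 0.0974 in ALDH_Low (SD, n = 3 each), the rest being ALDOA. ALDOA itself did not pass (log2 fold change -0.18, adjusted p = 0.407), and neither did TPI1 (-0.10, adjusted p = 0.644). In GENCODE 44 the whole span of ALDOC lies within RSKR, a kinase gene on the same strand, which was at 2.29 to 7.15 CPM over the 6 libraries and did not pass (log2 fold change 0.32, adjusted p = 0.636).

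**Figure D2:**
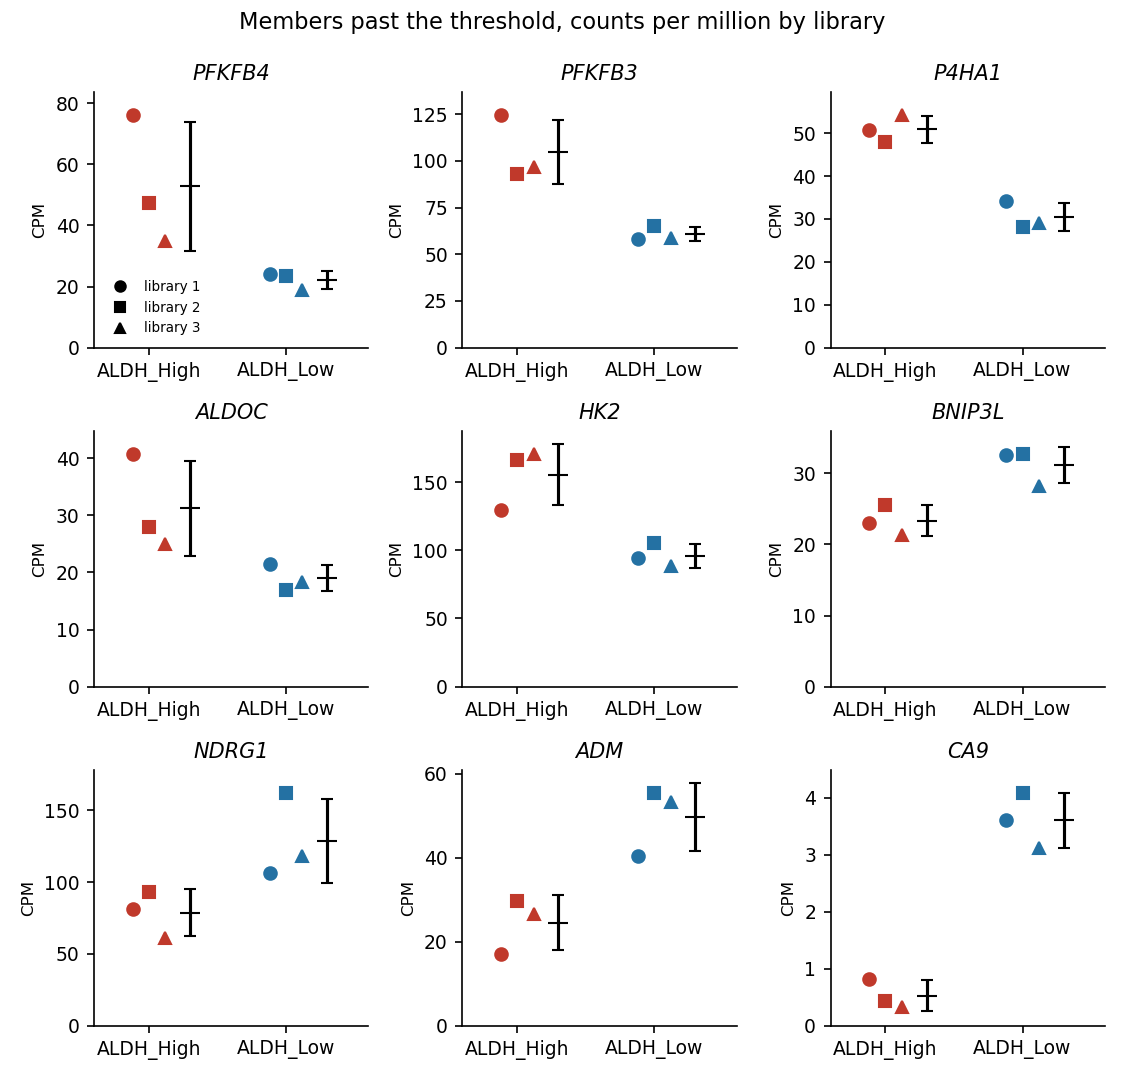
Level in CPM of the 9 genes past the threshold, 1 panel a gene, in ALDH_High (red) and ALDH_Low (blue), with library 1 as a circle, 2 as a square and 3 as a triangle, and the mean and SD in black. The groups do not overlap in any panel, and the ALDH_High circle is the highest point for PFKFB4, PFKFB3 and ALDOC.

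From triose phosphate to pyruvate, 6 genes were measured, and 0 passed: GAPDH, PGK1, PGAM1, ENO1, ENO2 and PKM had log2 fold changes between -0.25 and 0.24. PGK1, which makes the first ATP of the pathway, was at 1057, 810 and 839 CPM in ALDH_High and at 768, 810 and 720 CPM in ALDH_Low. ALDH_High library 1 stood above the rest and the groups met at about 810 CPM (log2 fold change 0.24, SE 0.13, adjusted p = 0.233). PKM, which encodes pyruvate kinase, had the lowest value of the 6, at -0.25 (adjusted p = 0.228). The ALDH_Low libraries were close together, at 4262 to 4339 CPM, and ALDH_High library 1, at 4364 CPM, lay above them while libraries 2 and 3, at 3363 and 3182 CPM, lay below.

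Lactate dehydrogenase and the lactate carriers did not pass either. LDHA, a classic HIF target, was at 1297, 1209 and 1093 CPM in ALDH_High and at 1161, 1230 and 1230 CPM in ALDH_Low. The groups overlapped over most of their range (log2 fold change -0.0086, SE 0.11, adjusted p = 0.969). LDHB gave -0.06, and its share of the lactate dehydrogenase TPM lay between 41.3% and 49.95% in every library. SLC16A1 (MCT1) and SLC16A3 (MCT4, the carrier linked to lactate export) gave 0.14 and -0.34, with adjusted p-values of 0.468 and 0.29. PDK1 and PDK3 encode kinases that switch off pyruvate dehydrogenase and so hold pyruvate back from the mitochondria; PDK1 gave 0.20 (adjusted p = 0.331). PDK3 was at 11.0, 7.32 and 8.56 CPM in ALDH_High and at 6.61, 4.92 and 5.39 CPM in ALDH_Low. These groups did not overlap and the value just missed the threshold (log2 fold change 0.66, SE 0.21, adjusted p = 0.0533). PDK3 passed in 5 of 15 alternatives, among them DESeq2 (0.0205), the replicate block (0.0226) and the fit without ALDH_High library 2 (0.0489). It did not pass in the other 10, with an adjusted p of 0.163 without ALDH_Low library 2 and 0.150 without ALDH_Low library 3.

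Read as a chain, the 17 enzyme genes from hexokinase to lactate dehydrogenase gave 2 higher (HK2 and ALDOC) and 0 lower, or 11.8% past the threshold against 20.6% of all genes. The other 15 had log2 fold changes between -0.25 and 0.29 with standard errors of 0.10 to 0.13 and adjusted p-values from 0.141 to 0.987. The summed level per length of all 17 enzymes was 24711, 21613 and 21709 TPM in ALDH_High and 22281, 22570 and 22327 TPM in ALDH_Low. That was 2.16% to 2.47% of all transcripts. ALDH_High library 1 was the highest of the 6 and the other ALDH_High libraries were the lowest, so the groups overlapped, and the ratio of the means was 1.01.

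Along the chain the level varied by step far more than by group. GAPDH stood highest in each library, at 8299 to 10516 TPM, and made up 36.8% to 42.6% of the enzyme total. Enolase followed at 3007 to 3554 TPM. Pyruvate kinase (1964 to 2513 TPM), lactate dehydrogenase (2262 to 2583 TPM) and aldolase (1886 to 2309 TPM) overlapped each other in range. Triosephosphate isomerase lay at 1320 to 1528 TPM, and phosphoglycerate kinase and mutase overlapped at 494 to 724 TPM and 587 to 713 TPM. Phosphofructokinase (231 to 262 TPM) lay below glucose-6-phosphate isomerase (329 to 394 TPM), and hexokinase was the lowest enzyme step at 82.7 to 116 TPM. These totals per step did not overlap between the groups for GAPDH and PGK1, which were above ALDH_Low in all 3 ALDH_High libraries in TPM; in CPM the groups overlapped for both. The counts of GAPDH are uncertain as far as reads were shared with near copies: 65 annotated pseudogenes are named after it, and 18 of the 40 genes have at least 1 such copy.

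**Figure D3:**
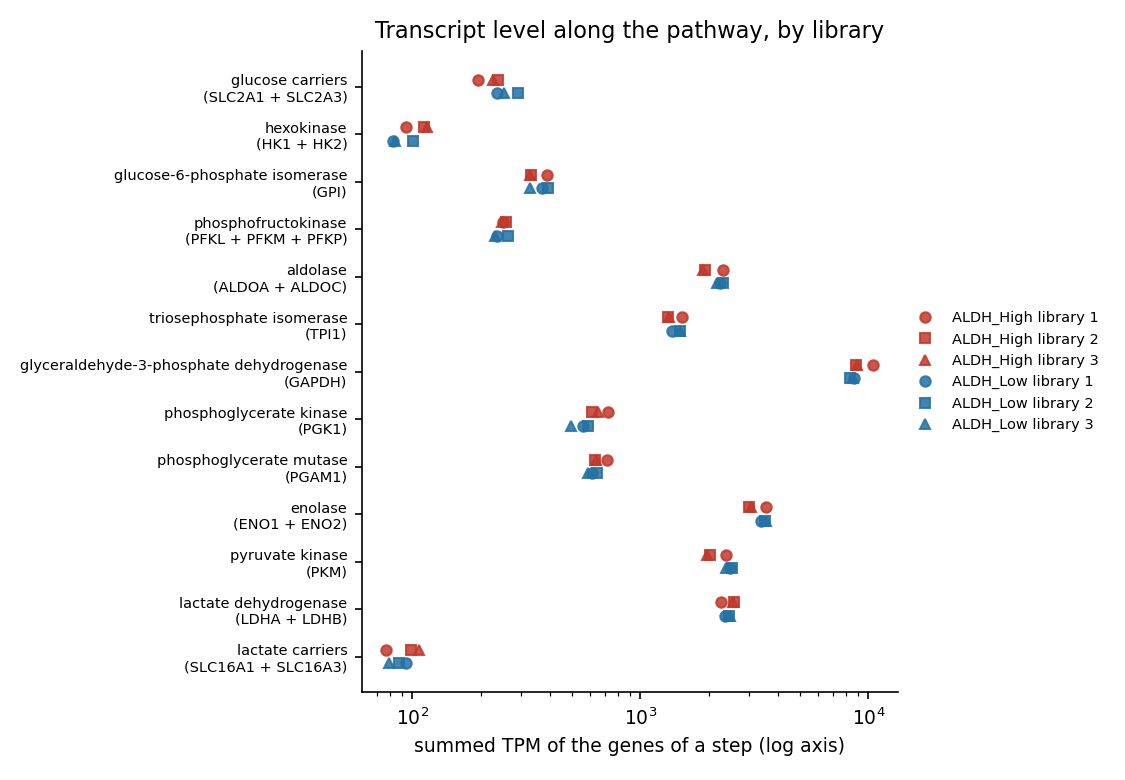
Summed TPM of the genes of each step, from the glucose carriers at the top to the lactate carriers at the bottom, on a log axis, with 1 point a library (red for ALDH_High, blue for ALDH_Low). The steps span from 77.0 TPM at the lactate carriers to 10516 TPM at GAPDH, and the groups lie close together at every step.

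ALDH_High library 1 stood above its group in most enzymes. Of the 17 enzymes, 15 were higher in it than in both other ALDH_High libraries and 2 were lower, and over the 39 tested genes the counts were 23 and 8. The median coefficient of variation of the 17 enzymes was 15.0% in ALDH_High and 5.88% in ALDH_Low. With that library left out, 12 of the 40 genes passed, 6 higher and 6 lower, against a background of 23.7% of 17788 genes tested, of which 11.5% were lower. PKM then fell by 0.38 on the log2 scale (adjusted p = 0.00641), ALDOA by 0.32 (0.0172) and ENO1 by 0.28 (0.0291), CA12 passed as higher (0.031), and BNIP3L no longer passed. HK2, PFKFB3, PFKFB4, P4HA1, CA9 and ADM passed with any 1 of the 6 libraries left out.

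On the HIF side, the genes of the factors themselves did not pass. HIF1A was at 136, 176 and 176 CPM in ALDH_High and at 184, 166 and 150 CPM in ALDH_Low. The groups overlapped (log2 fold change -0.03, SE 0.13, adjusted p = 0.895). EPAS1, which encodes HIF-2 alpha, was at 3.19, 3.53 and 1.91 CPM in ALDH_High and at 4.69, 2.91 and 3.02 CPM in ALDH_Low, which gave a log2 fold change of -0.31 (SE 0.31, adjusted p = 0.547). It was the minor factor in these cells, with 0.744% to 1.74% of the TPM of the pair. The prolyl hydroxylase genes EGLN1 and EGLN3 gave 0.03 and -0.29, with adjusted p-values of 0.897 and 0.698, and EGLN3, itself a known HIF target, was barely expressed at 0.235 to 0.597 CPM. HIF is controlled mainly at the level of its protein, which was not measured here.

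The pair of carbonic anhydrases moved in opposite directions. CA9 encodes a membrane enzyme that handles the acid of glycolytic cells and is one of the most widely used HIF reporters. It was at 0.828, 0.434 and 0.322 CPM in ALDH_High, from 21, 15 and 11 counts, and at 3.61, 4.08 and 3.13 CPM in ALDH_Low, from 139, 122 and 87 counts (chr9:35673928-35681159). No ALDH_High library came near an ALDH_Low library, and CA9 was 6.82-fold higher in ALDH_Low in mean CPM (log2 fold change -2.80, SE 0.37, adjusted p = 0.000492). The level was low in both groups, at 3.96 ± 0.637 TPM in ALDH_Low and 0.582 ± 0.244 TPM in ALDH_High (SD, n = 3 each). In GENCODE 44, CA9 shares 1939 bases with ARHGEF39 on the opposite strand. ARHGEF39 moved the other way, from 20.1 to 25.6 CPM in ALDH_Low up to 28.2 to 35.4 CPM in ALDH_High (log2 fold change 0.49, adjusted p = 0.0333).

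CA12, a related enzyme, had the reverse pattern at still lower counts. It had 25, 12 and 10 counts in ALDH_High and 3, 1 and 0 in ALDH_Low (chr15:63321378-63381846), too few for the main test. With a floor of 3 counts set in each ALDH_Low library, the mean ALDH_High level was 5.52-fold that floor. ALDH_Low library 1 lay at the floor itself, and the ratio includes no counting error, so it is not a lower limit. ALDH_High library 1 held the most counts, and without it, a setting added after the data were seen, the ratio was 3.39-fold. DESeq2, which kept the gene, gave an adjusted p of 0.00691. In edgeR, CA12 also passed with no filter on low counts and without ALDH_High library 1, ALDH_High library 3 or ALDH_Low library 1. It passed narrowly without ALDH_Low library 3 (adjusted p = 0.0498). It was tested but did not pass without ALDH_Low library 2, nor with limma on log2(TPM + 1) with no TPM filter. CA12 made up 25.5%, 18.0% and 20.4% of the TPM of the pair in ALDH_High and 0.626%, 0.155% and 0% in ALDH_Low.

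Among the other targets of HIF, 1 of 9 rose and 3 fell, where 10.8% of all genes were higher and 9.83% lower; of the 3, BNIP3L and NDRG1 lost their calls with certain libraries left out, as given below. P4HA1, which hydroxylates collagen so that it folds, was at 50.8, 47.8 and 54.2 CPM in ALDH_High and at 34.2, 28.2 and 29.0 CPM in ALDH_Low (chr10:73007217-73096974). The groups were separated and the libraries within each lay close together (log2 fold change 0.74, SE 0.12, adjusted p = 0.00202). P4HA2, which has the same function, did not pass (0.27, adjusted p = 0.452): ALDH_High library 1 was at 41.5 CPM and the other 5 libraries lay between 22.1 and 26.9 CPM.

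ADM, the peptide adrenomedullin that widens blood vessels, was at 17.2, 29.8 and 26.7 CPM in ALDH_High and at 40.3, 55.4 and 53.4 CPM in ALDH_Low (chr11:10305073-10307397). It was lower in all 3 ALDH_High libraries, most of all in library 1 (log2 fold change -1.01, SE 0.20, adjusted p = 0.00594). NDRG1, a stress and differentiation gene, was at 81.5, 93.3 and 60.9 CPM in ALDH_High and at 106, 162 and 118 CPM in ALDH_Low (chr8:133237175-133302022). Its groups did not overlap, though ALDH_High library 2 came close to ALDH_Low library 1 (log2 fold change -0.71, SE 0.19, adjusted p = 0.0243). The NDRG1 call was lost without ALDH_High library 3 (adjusted p = 0.0844), ALDH_Low library 2 (0.0999) or ALDH_Low library 3 (0.0546).

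BNIP3L, which tags mitochondria for removal, was at 23.1, 25.6 and 21.3 CPM in ALDH_High and at 32.6, 32.7 and 28.3 CPM in ALDH_Low (chr8:26383054-26505636). It was the smallest of the 9 changes (log2 fold change -0.42, SE 0.13, adjusted p = 0.0445). It did not pass when any 1 library was left out, with adjusted p-values from 0.0525 to 0.17. Its relative BNIP3 did not pass (-0.03, adjusted p = 0.894). VEGFA, the main blood vessel growth factor, was at 44.5, 57.7 and 58.5 CPM in ALDH_High and at 44.2, 62.3 and 58.1 CPM in ALDH_Low. Library 1 was the lowest of each group and the groups overlapped fully (log2 fold change -0.03, SE 0.16, adjusted p = 0.914). ANKRD37 and the histone demethylase gene KDM3A gave -0.13 and 0.28 and did not pass.

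Where related genes share a step, their shares overlapped between the groups in most cases. Of 14 such families, 4 had shares of TPM that did not overlap between the groups: HK2 in hexokinase, PFKL in phosphofructokinase, ALDOC in aldolase, and CA12 beside CA9. For single genes, a different measure, the groups did not overlap in CPM for 37.8% of all genes tested. These shares are a description, and with 3 libraries a group no exact permutation test can go below p = 0.1.

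**Figure D4:**
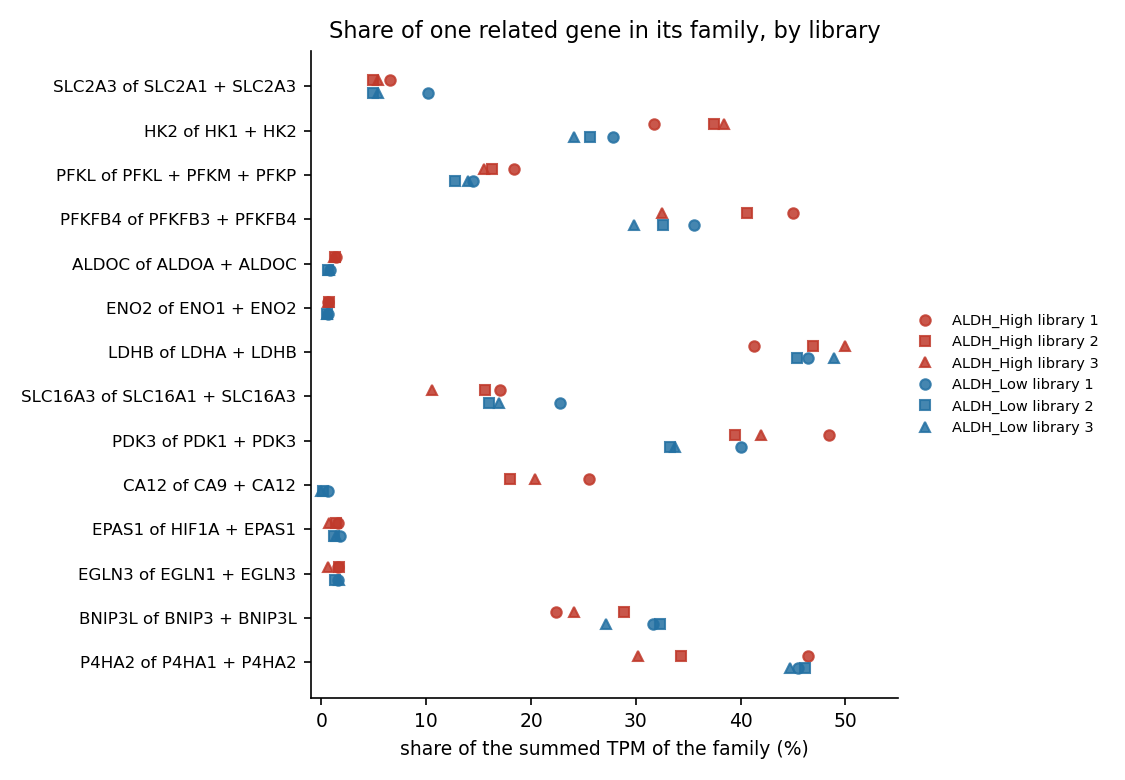
Share of the summed TPM of a family held by 1 of its genes, in percent, with 1 point a library (red for ALDH_High, blue for ALDH_Low). The groups are apart for HK2, PFKL, ALDOC and CA12, and overlap in the other 10 families.

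The other genes of the same pathways were counted from lists that overlap none of the 40. Of 58 further genes of glycolysis and its branches, 40 were tested: 3 were higher, 1 was lower and the median log2 fold change was 0.08, with 10% past the threshold against 20.6% of all genes. Those 4 became 9 without ALDH_High library 1, and 2 without ALDH_Low library 2 or ALDH_Low library 3. PDHX, a subunit that holds the pyruvate dehydrogenase complex together, was at 45.4, 56.4 and 61.0 CPM in ALDH_High and 36.2, 33.0 and 37.4 CPM in ALDH_Low (log2 fold change 0.61, adjusted p = 0.00959). PC, pyruvate carboxylase, gave 0.90 (adjusted p = 0.0114), and SLC2A6, another member of the glucose carrier family, gave 0.95 (0.0163). HKDC1, a relative of the hexokinases, was lower, at 5.36 ± 1.06 CPM against 9.57 ± 1.67 CPM (SD, n = 3 each; log2 fold change -0.84, adjusted p = 0.0213). Of 15 alternatives, HKDC1 did not pass in 6, SLC2A6 in 4, PC in 2 and PDHX in 1. The mitochondrial pyruvate carrier genes MPC1 and MPC2, named after their values were seen, did not pass. MPC1 gave 0.03, and MPC2 gave -0.35 (adjusted p = 0.111) with groups that were barely apart.

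Of 44 further genes of the HIF pathway and the hypoxia response, 40 were tested, and 15 passed (37.5%, against 20.6% of all genes): 7 were higher and 8 lower, with a median log2 fold change of -0.08. This list and the one before it were chosen with earlier results of these data known. Their shares are therefore a description, and the difference from all genes was not tested. FLT1, a receptor for VEGFA, was at 34.4, 43.1 and 46.6 CPM in ALDH_High and at 2.13, 0.903 and 2.23 CPM in ALDH_Low, which gave a log2 fold change of 4.55 (SE 0.29, adjusted p = 7.3e-06). IGFBP3, which binds insulin-like growth factors, was also higher throughout, at 158 to 217 CPM against 37.6 to 42.1 CPM (2.21, adjusted p = 7.56e-06). ANGPTL4, an inhibitor of lipoprotein lipase, gave 1.23, the MYC antagonist MXI1 gave 0.75, and the prolyl hydroxylase EGLN2 gave 0.53. Of 15 alternatives, MXI1 did not pass in 4 and EGLN2 did not pass in 3.

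On the lower side, STC2, a secreted hormone, was at 8.12, 17.0 and 11.3 CPM in ALDH_High and at 46.4, 71.8 and 59.0 CPM in ALDH_Low, which gave a log2 fold change of -2.27 (SE 0.26, adjusted p = 0.000197). CITED2, which competes with HIF for its coactivators, was at 13.5 to 19.5 CPM against 53.1 to 108 CPM (-2.17, adjusted p = 0.000282). PGF, a relative of VEGFA, gave -1.27, and HMOX1, which breaks down heme, gave -0.73. ARNT, the constant partner of the HIF alpha subunits, and VHL, which directs their destruction, did not pass, at 0.15 and -0.08; both were named after their values were seen.

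**Figure D5:**
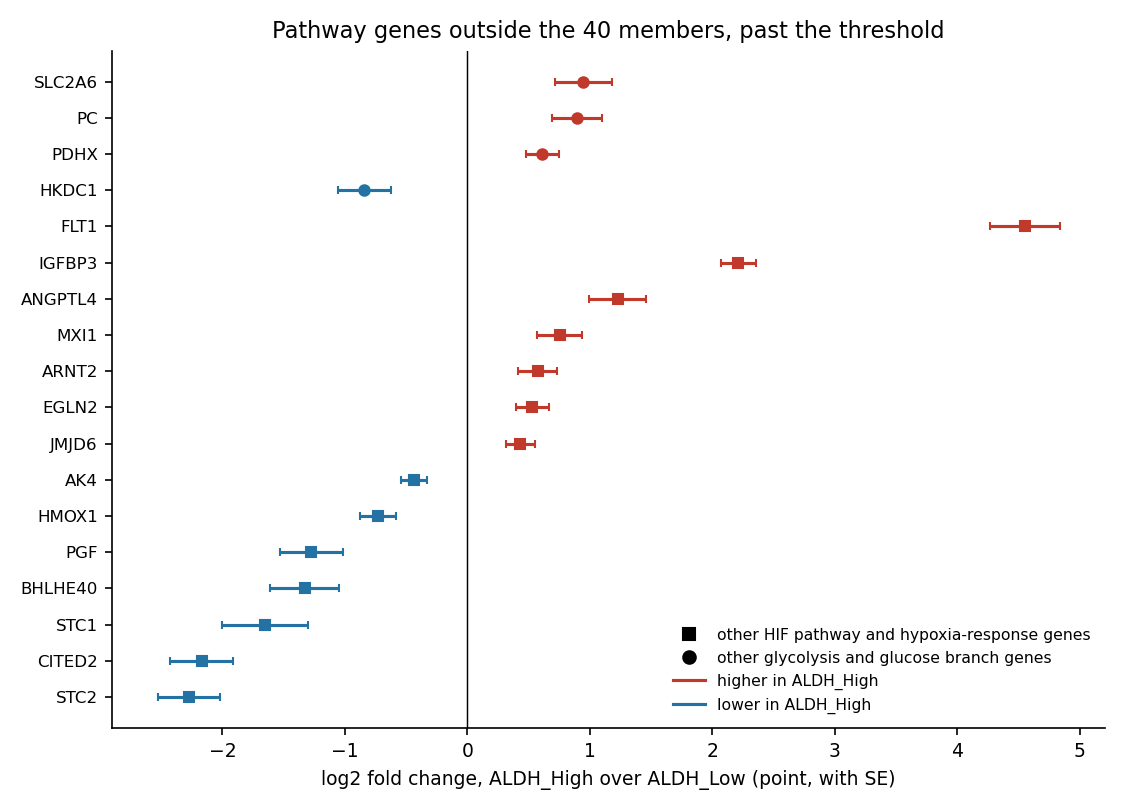
Log2 fold change, ALDH_High over ALDH_Low, with its standard error, of further pathway genes past the threshold; 1 of them is not shown. Squares are HIF pathway and hypoxia-response genes, which lie on both sides of 0 from STC2 to FLT1, and circles are genes of glycolysis and its branches.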

How the data were processed

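RNA of 6 libraries was analysed, 3 ALDH_High and 3 ALDH_Low. Stranded mRNA libraries (TruSeq) had been made from 500 ng of total RNA, per the labels' protocols. The submitters' processing notes name FastQC 0.11.3, STAR 2.5.1b, HTSeq 0.6.1, DESeq2 and GRCh38, with no role or order, and whether counting used strand is not given in the sources used here. The authors deposited counts per gene and TPM. The deposited counts were taken as estimated counts rounded to whole numbers, since 133 to 177 genes a library had a count of 0 beside a TPM above 0. Rows without a gene name numbered 261 and held 0.0213% to 0.0267% of a library's counts; they have Ensembl identifiers and stayed in.

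Counts were filtered with filterByExpr, scaled by TMM and tested with edgeR 4.0.16 in R 4.3.3 (glmQLFit and glmQLFTest, two-sided, ALDH_High against ALDH_Low, no block), with Benjamini-Hochberg adjustment over all 17047 genes tested. The SE is the log2 fold change over the square root of F. The fit was tested on simulated counts first. Per-library values were given for genes past the threshold and for 8 genes chosen by name, CPM from TMM-scaled libraries, shares and steps from TPM; from each further list up to 5 genes a direction were named. The labels do not say whether the replicate numbers pair the samples. Alternatives were DESeq2 1.42.0, other scalings and filters, the replicate block, limma 3.58.1 on log2(TPM + 1) and log2(TPM + 0.1), and each library left out. Positions and overlaps come from GENCODE 44 and promoters from RefSeq. Values of some listed genes are not reported here. The genes and lists were chosen with earlier results of these data known.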

Additional observations from a re-analysis of the deposited data

How the results depend on the processing

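No paired test was made in the main comparison because the labels state no pairing. Over all genes tested, the deviations of the same-numbered libraries correlated at 0.15, 0.076 and 0.108. Libraries of unlike number correlated between -0.103 and 0.0235. Each library thus correlated best with its own number, a hint of pairing from the data and not from the labels. With the replicate block 11 of the 40 genes passed (6 higher, 5 lower; SLC2A3 and PDK3 were added) and 3748 of all genes.

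The number of the 40 genes that passed lay between 6 and 12 with 1 library left out and fell to 3 with limma on log2(TPM + 1) with no TPM filter and to 3 when a log2 fold change of at least 1 in size was also asked for. PFKFB3, CA9 and P4HA1 passed in that limma fit, where HK2 (adjusted p = 0.076), PFKFB4 (0.0521) and ADM (0.102) did not. Over all genes these settings gave 2006 and 1958, an adjusted p below 0.01 gave 1930, and leaving out 1 library gave 2488 to 4221. The other glycolysis list gave 7 with no filter on low counts, 0 with limma on log2(TPM + 1) with no TPM filter and 2 to 9 with 1 library left out. The immediate early list gave 8 with no filter on low counts, 8 with the replicate block and 3 to 8 with 1 library left out. The causes were not tested.

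The median log2 fold change of the tested genes among the 40 ranged from -0.08 with upper-quartile factors to 0.02. Single values near 0 changed sign, and in no setting did they pass. With upper-quartile factors HK1 gave -0.045 and EGLN1 -0.017. With limma on log2(TPM + 1), with or without a TPM filter, ENO2 gave 0.022, LDHA 0.038, HIF1A 0.011, VEGFA 0.019 and BNIP3 0.014, and with log2(TPM + 0.1) ENO2 gave 0.023, LDHA 0.038, HIF1A 0.010, VEGFA 0.019 and BNIP3 0.014. LDHA gave 0.0032 with no filter on low counts, 2.7e-05 with DESeq2 size factors and 0.012 with DESeq2. With 1 library left out the values ran from -0.064 to 0.083 for HK1, -0.027 to 0.19 for GAPDH, -0.032 to 0.14 for PGAM1, -0.083 to 0.039 for ENO2, -0.051 to 0.069 for LDHA, -0.094 to 0.034 for LDHB, -0.11 to 0.097 for HIF1A, -0.044 to 0.13 for EGLN1, -0.50 to 0.034 for EGLN3, -0.15 to 0.10 for VEGFA, -0.12 to 0.054 for BNIP3, -0.26 to 0.011 for ANKRD37 and -0.053 to 0.45 for P4HA2. Depth limits CA12, EGLN3, EPAS1 and CA9, which rest on few counts.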

Other observations

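A further 5 of the 15 HIF pathway and hypoxia-response genes past the threshold were named after their values were seen. STC1, a secreted hormone related to STC2, was at 9.94, 4.78 and 3.49 CPM in ALDH_High and at 23.6, 18.8 and 14.2 CPM in ALDH_Low (log2 fold change -1.65, adjusted p = 0.00744 in edgeR's quasi-likelihood test). BHLHE40, a repressor of the clock and of differentiation, was at 13.3, 6.63 and 10.8 CPM against 32.4, 16.9 and 27.3 CPM (-1.33, adjusted p = 0.00795). AK4, a mitochondrial adenylate kinase, was at 52.6 to 59.1 CPM against 71.0 to 78.5 CPM (-0.44, adjusted p = 0.0165). On the higher side, ARNT2, an alternative partner of HIF, was at 41.7 to 59.4 CPM against 30.3 to 39.2 CPM (0.58, adjusted p = 0.0281), and JMJD6, an oxygen-using hydroxylase, was at 61.5 to 67.7 CPM against 41.7 to 52.3 CPM (0.43, adjusted p = 0.0297). In all 5, picked for passing the threshold, the groups did not overlap in CPM, where 37.8% of all genes tested did not.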
